A study of Rattus norvegicus with 7 samples.

Results

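The genes described here are 40 rat genes of the renin-angiotensin, endothelin, nitric oxide, natriuretic peptide, kinin, prostanoid, monoamine and calcitonin systems, which act on vessel tone, salt handling and blood pressure. They were chosen by gene symbol, and every probe set that the platform annotation gives to 1 of these symbols was used. This gave 50 probe sets for 35 of the 40 genes, out of 31042 probe sets in all. Edn3, Ednra, Ednrb and Prkg1 had no probe set of their own, and the probe set that names Kng1 is shared with 2 related genes, so these 5 genes are not analysed here.

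They were measured in NRK-52E, a rat kidney epithelial line, on 7 Affymetrix arrays that each hold RNA of an independent culture. The study concerns Adamts16, which encodes a secreted metalloprotease and is studied as a candidate gene for inherited hypertension. Cultures had siRNA 3488 against Adamts16 (2 arrays), siRNA 2600 against Adamts16 (2 arrays) or a scrambled siRNA (3 arrays). All 7 cultures were transfected by lipofection at 100 pmol of duplex per ml in medium with 10% serum, and RNA was taken 48 h later, so effects of transfection itself are in every group. The model is a single cell line in culture, without vessels, blood flow or the other cells of the kidney.

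In the renin-angiotensin system, angiotensinogen is cleaved by renin and then by angiotensin-converting enzyme to angiotensin II, which narrows vessels and acts on the tubule through its receptors. Endothelin also narrows vessels, while nitric oxide and natriuretic peptides relax them by raising cyclic GMP, and kinins and several prostanoids act as local dilators. The tubule epithelium is both a source and a target of many of these signals.

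The antisense strands of the 3 siRNAs are shown because the comparisons rest on them. They are printed 5′ to 3′ without the overhang, and capitals mark the seed, bases 2 to 8.
siRNA 3488: tTTCCGGAgacgtacttct
siRNA 2600: tTGCGCACagaaatatagg
Scrambled control: aTTACCGAgcacattggagg
No seed is shared between the strands, and each siRNA was compared with the control on its own as well as jointly with the other.

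Median array signals lay between 126.1 and 139.6 (arbitrary units), and precision is limited by the number of arrays throughout. The single Adamts16 probe set, 1385969_at, read 12.1 and 40.4 in siRNA 3488 cultures, 21.4 and 2.42 in siRNA 2600 cultures and 8.68, 7.18 and 18.9 in control cultures. It was too dim to be tested, so the knockdown cannot be read from these arrays. On the first principal component, with 39.2% of the variance, the control arrays took values of 11.4 to 20.1 and siRNA 2600 replicate 1 one of 17.7, while replicate 2 lay at -6.72 and the siRNA 3488 arrays at -22.3 and -37.2. Of 11 epithelial markers, 3 were bright enough to be tested, with Krt8 and Tjp1 at percentile 98.2 of the array and Krt19 at 46.2. Cdh1 (6.30) and Epcam (13.7), which define epithelia, were near the bottom. Cdh16 (14.9), Krt18 (16.5), Pax2 (17.2), Lhx1 (30.4), Pax8 (37.1) and Cldn1 (37.5) were dim as well. Of 11 proximal tubule markers 4 were tested, and the median percentile of the 11 was 23.2. The labelled cell type is borne out by some of its markers only. Of 12 fibroblast and mesenchymal markers, 7 were bright enough to be tested, with Vim and Col3a1 above percentile 99, while Lum (8.51), Pdgfra (10.6), Thy1 (22.5), Dcn (24.9) and Cdh2 (33.7) were dim. The summed signal of the mesenchymal markers was 53269 and 61156 in siRNA 3488 cultures and 44786 and 47118 in siRNA 2600 cultures. It ranged over 41669 to 43832 in control cultures. With siRNA 3488, 4 of the 7 tested markers were called higher (median log2 change 0.44), beside 19.9% of all genes called either way. With siRNA 2600, 0 were called (median 0.10), beside 1.83% of all genes. The shares of all genes came from a separate fit of 10019 genes by their brightest probe set, with its own adjustment. The fit that called the markers called 15.6% of all tested probe sets with siRNA 3488 and 1.03% with siRNA 2600. Col3a1 and Vim alone carried 70.1% to 73.3% of the sum in siRNA cultures and 70.6% to 72.0% in control cultures, and the other 10 summed to 13395 to 16305 in siRNA cultures and 11671 to 12644 in control cultures.

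Most of the vasoactive genes gave low signals in these cells. Only 20 of the 50 probe sets, from 16 genes, were among the upper 60% of all probe sets by mean log2 signal and entered the tests. For 19 genes every probe set stayed under this level. Signals were over 500 on all arrays for 6 probe sets and under 100 on all arrays for 28. By mean percentile within the array, the highest were those of Atp6ap2 (95.7), Ptgis (91.5), Rnpep (90.6), Enpep (82.4), Edn1 (80.9) and Ece1 (76.3). These percentiles place a probe set within its arrays and are not levels that can be ranked between genes. The plot of all signals shows the spread of the dim probe sets, whose highest and lowest arrays differed 5.80-fold in the median, against 1.75-fold for the tested ones.

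**Figure D1:**
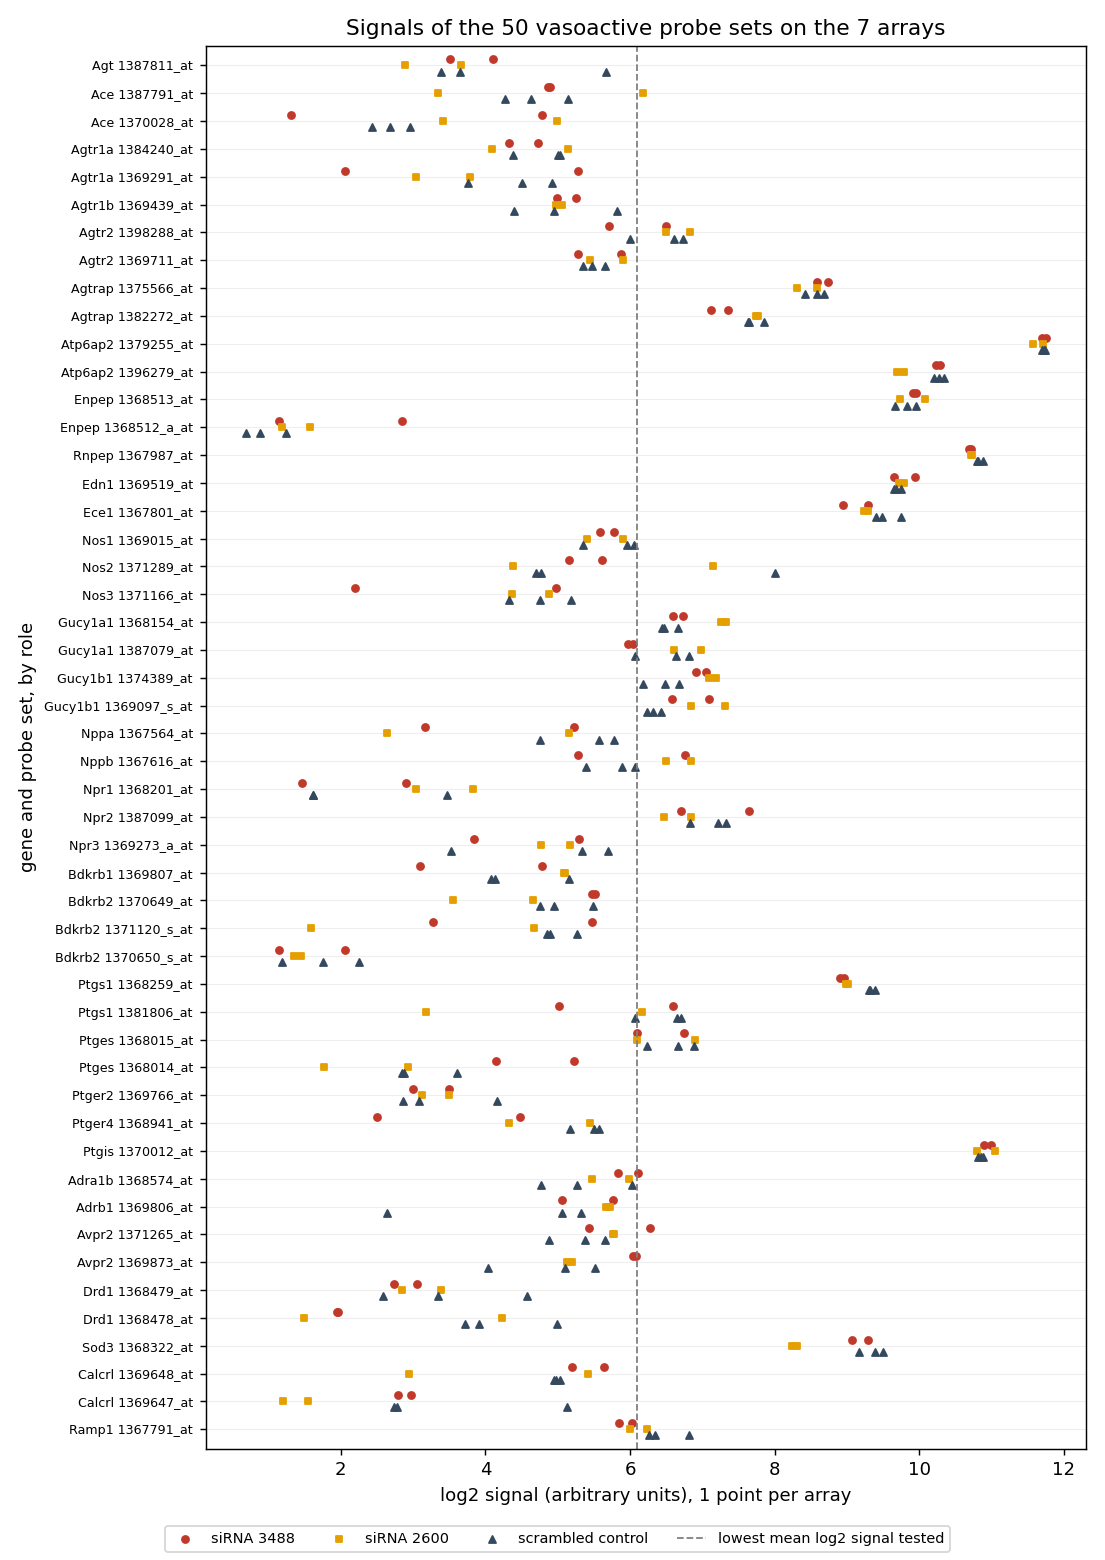
The plot shows the log2 signal of the 50 probe sets of the vasoactive genes, with 1 point per array in siRNA 3488, siRNA 2600 and scrambled control cultures, ordered by role. The dashed line is the lowest mean log2 signal that entered the tests (6.09), and 20 probe sets have means at or above it.

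Few of the tested genes changed. With siRNA 3488, Ptgs1 (cyclooxygenase 1) and Ece1 (endothelin-converting enzyme 1) fell, by 0.40 and 0.43 on the log2 scale. With siRNA 2600, Sod3 (extracellular superoxide dismutase) fell by 1.08 and 1 of the probe sets of Atp6ap2 (the prorenin receptor) fell by 0.54. No gene passed the test as higher than the control with either siRNA, and no gene passed the test with both siRNAs in 1 group. A probe set was called at a limma adjusted p under 0.05, with Benjamini-Hochberg adjustment over all 18625 probe sets tested.

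The share called lay below that of all tested probe sets with siRNA 3488 and above it with siRNA 2600, on counts of 2 genes each. With siRNA 3488, 2 of the 20 probe sets were called, where 15.6% of all tested probe sets were, and the median log2 change was -0.0064 beside -0.062 over all. With siRNA 2600, 2 of 20 were called beside 1.03% of all, and the median was -0.02 beside -0.022. With both siRNAs 0 of 20 were called beside 0.145% of all, and the median was -0.085 beside -0.045. An unadjusted p under 0.05 was reached by 4 of 20 with siRNA 3488 (31.9% of all), by 6 with siRNA 2600 (15.2% of all) and by 5 with both (17.8% of all). The arrays of the groups did not overlap for 9 probe sets with siRNA 3488 (50.3% of all probe sets), for 10 with siRNA 2600 (34.0% of all) and for 6 with both (17.7% of all). The siRNA comparisons share the 3 control arrays. The beta-actin 3′ to 5′ signal ratio was 1.96 and 1.94 in siRNA 3488 cultures, 1.83 and 1.81 in siRNA 2600 cultures and 1.74 to 1.79 in control cultures, so every siRNA array lay above every control array. The mean log2 signal of 18 spiked-in control probe sets was 11.5 and 11.8 in siRNA 3488 cultures, 11.0 and 11.3 in siRNA 2600 cultures and 11.1 to 11.2 in control cultures. The part of these shifts, and of the mesenchymal marker sum above, in the results was not tested. Since each array holds RNA of a whole culture, fewer cells of a type and less RNA per cell cannot be told apart.

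**Figure D2:**
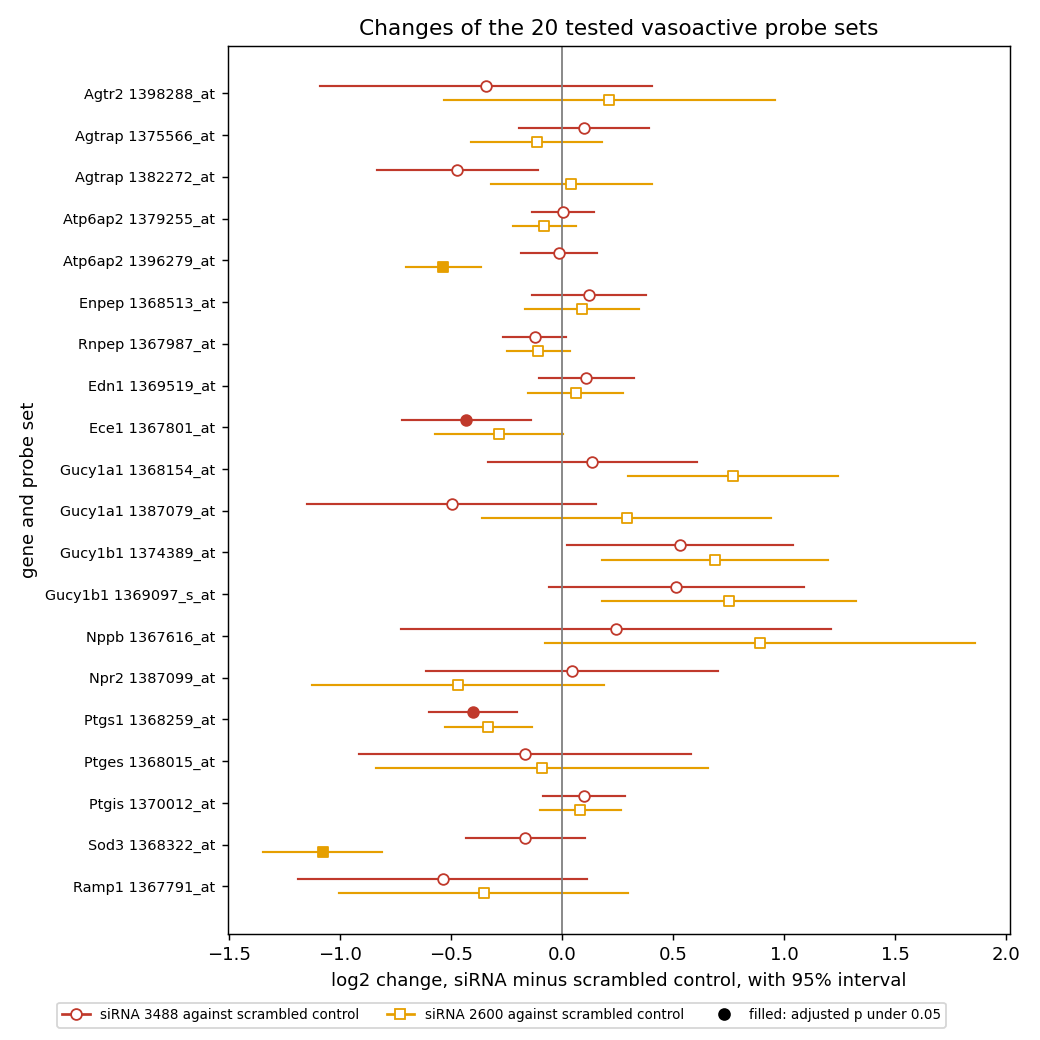
The plot shows the log2 change of the 20 tested probe sets with siRNA 3488 and with siRNA 2600 against the scrambled control, with 95% intervals, and filled points have an adjusted p under 0.05. The 4 filled points all lie below 0, at -0.40 (Ptgs1) and -0.43 (Ece1) with siRNA 3488 and at -1.08 (Sod3) and -0.54 (Atp6ap2) with siRNA 2600.

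Among the renin-angiotensin genes, Atp6ap2 encodes a receptor that binds renin and prorenin and is also an accessory subunit of the vacuolar proton pump. Its probe set 1396279_at read 826 and 885 in siRNA 2600 cultures, against 1300, 1183 and 1239 in control cultures. Both siRNA 2600 arrays were below all control arrays, with means of 855 ± 41.9 for siRNA 2600 (SD, n = 2) and 1240 ± 58.6 for the control (n = 3), and the log2 change was -0.54 ± 0.08 (SE; 95% interval -0.71 to -0.37; limma adjusted p = 0.0142). With siRNA 3488 the same probe set read 1254 and 1198, within the control range, and its log2 change was -0.02 (95% interval -0.19 to 0.15; limma adjusted p = 0.912).

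The brighter Atp6ap2 probe set, 1379255_at, did not show this difference. It read 3033 and 3339 in siRNA 2600 cultures, against 3314, 3373 and 3419 in control cultures, so the groups overlapped and the log2 change was -0.08 (95% interval -0.22 to 0.06; limma adjusted p = 0.596). The fall of Atp6ap2 with siRNA 2600 is therefore seen by 1 of its 2 probe sets. The call on 1396279_at was lost when any of the 3 control arrays was left out (limma adjusted p 0.0562 to 0.0796). It was also lost when the replicate number entered as a block (0.0523) and without an intensity trend (0.111).

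Enpep and Rnpep encode aminopeptidases that trim angiotensin peptides. Enpep read 966 and 996 in siRNA 3488 cultures, 1077 and 854 in siRNA 2600 cultures and 808, 911 and 995 in control cultures. The groups overlapped, and the log2 changes of 0.12 with siRNA 3488 and 0.09 with siRNA 2600 did not pass the test. Its other probe set stayed between 1.61 and 7.19. Rnpep read 1688 and 1652 in siRNA 3488 cultures, 1691 and 1685 in siRNA 2600 cultures and 1884, 1774 and 1802 in control cultures. All 4 siRNA arrays were below the control arrays, yet the difference was small, with a log2 change of -0.12 for both siRNAs together (limma adjusted p = 0.337). Agtrap encodes a protein that binds the type 1 angiotensin receptor and promotes its uptake. Its dimmer probe set, 1382272_at, read 164 and 139 in siRNA 3488 cultures, against 201, 198 and 232 in control cultures, and its log2 change of -0.47 did not pass the test (limma adjusted p = 0.075), and its other probe set gave 0.10.

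The ligand precursor and the main receptors were at the bottom of the signal range. Agt, the angiotensinogen gene, lay between 7.38 and 50.7 over the 7 arrays, and the brighter Ace probe set between 10.2 and 72.3. Agtr1a and Agtr1b, the type 1 receptor genes, stayed under 60, with ranges of 17.0 to 35.4 and 20.9 to 56.2 for their brighter probe sets. Agtr2, the type 2 receptor gene, had 1 tested probe set that read 52.2 and 90.6 in siRNA 3488 cultures, 114 and 90.0 in siRNA 2600 cultures and 97.2, 107 and 64.1 in control cultures. No change of these genes was detected.

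In the endothelin system, Edn1 encodes the precursor of endothelin 1 and Ece1 the protease that makes the active peptide. Ece1 read 624 and 492 in siRNA 3488 cultures, 601 and 625 in siRNA 2600 cultures and 674, 717 and 862 in control cultures. The 4 siRNA arrays all lay below the 3 control arrays, with means of 558 ± 93.3 for siRNA 3488 (SD, n = 2), 613 ± 16.7 for siRNA 2600 (n = 2) and 751 ± 98.3 for the control (n = 3). With siRNA 3488 the log2 change was -0.43 ± 0.13 (SE; 95% interval -0.72 to -0.14; limma adjusted p = 0.0488), at the edge of the threshold. The change under siRNA 2600, -0.28 (95% interval -0.57 to 0.00), did not pass (limma adjusted p = 0.339).

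The Ece1 call depended on single arrays and on the scaling. Without siRNA 3488 replicate 2 its log2 change was -0.26 and the adjusted p 0.326, a change of more than 1.5 times, and it was also lost without any 1 of the control arrays and after quantile normalization (0.110), median centring (0.111) or cyclic loess (0.131). A block on the replicate number also ended it (0.117), as did fits without an intensity trend (0.116) or without the filter on low signals (0.0806). Edn1 read 987 and 806 in siRNA 3488 cultures, 880 and 844 in siRNA 2600 cultures and 807, 857 and 818 in control cultures. Its groups overlapped, and the log2 change was 0.11 with siRNA 3488 (95% interval -0.11 to 0.32) and 0.06 with siRNA 2600 (95% interval -0.15 to 0.27).

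Of the nitric oxide and cyclic GMP genes, Sod3 gave the largest fall among the 20 tested probe sets. It encodes a secreted enzyme that removes superoxide, which otherwise consumes nitric oxide. Sod3 read 316 and 301 in siRNA 2600 cultures, against 574, 671 and 720 in control cultures. No array of siRNA 2600 came near the controls, with means of 309 ± 10.6 for siRNA 2600 (SD, n = 2) and 655 ± 74.2 for the control (n = 3). The log2 change was -1.08 ± 0.12 (SE; 95% interval -1.35 to -0.81; limma adjusted p = 0.00545), that is 2.11-fold lower.

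With siRNA 3488 the Sod3 signals of 625 and 539 overlapped those of the control, and the log2 change was -0.17 (95% interval -0.43 to 0.10; limma adjusted p = 0.373). The call with siRNA 2600 held in 17 of 18 alternative settings, leaving out any array included. The exception was the fit without an intensity trend (limma adjusted p = 0.0814), which called 0 of all 18625 probe sets with siRNA 2600.

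**Figure D3:**
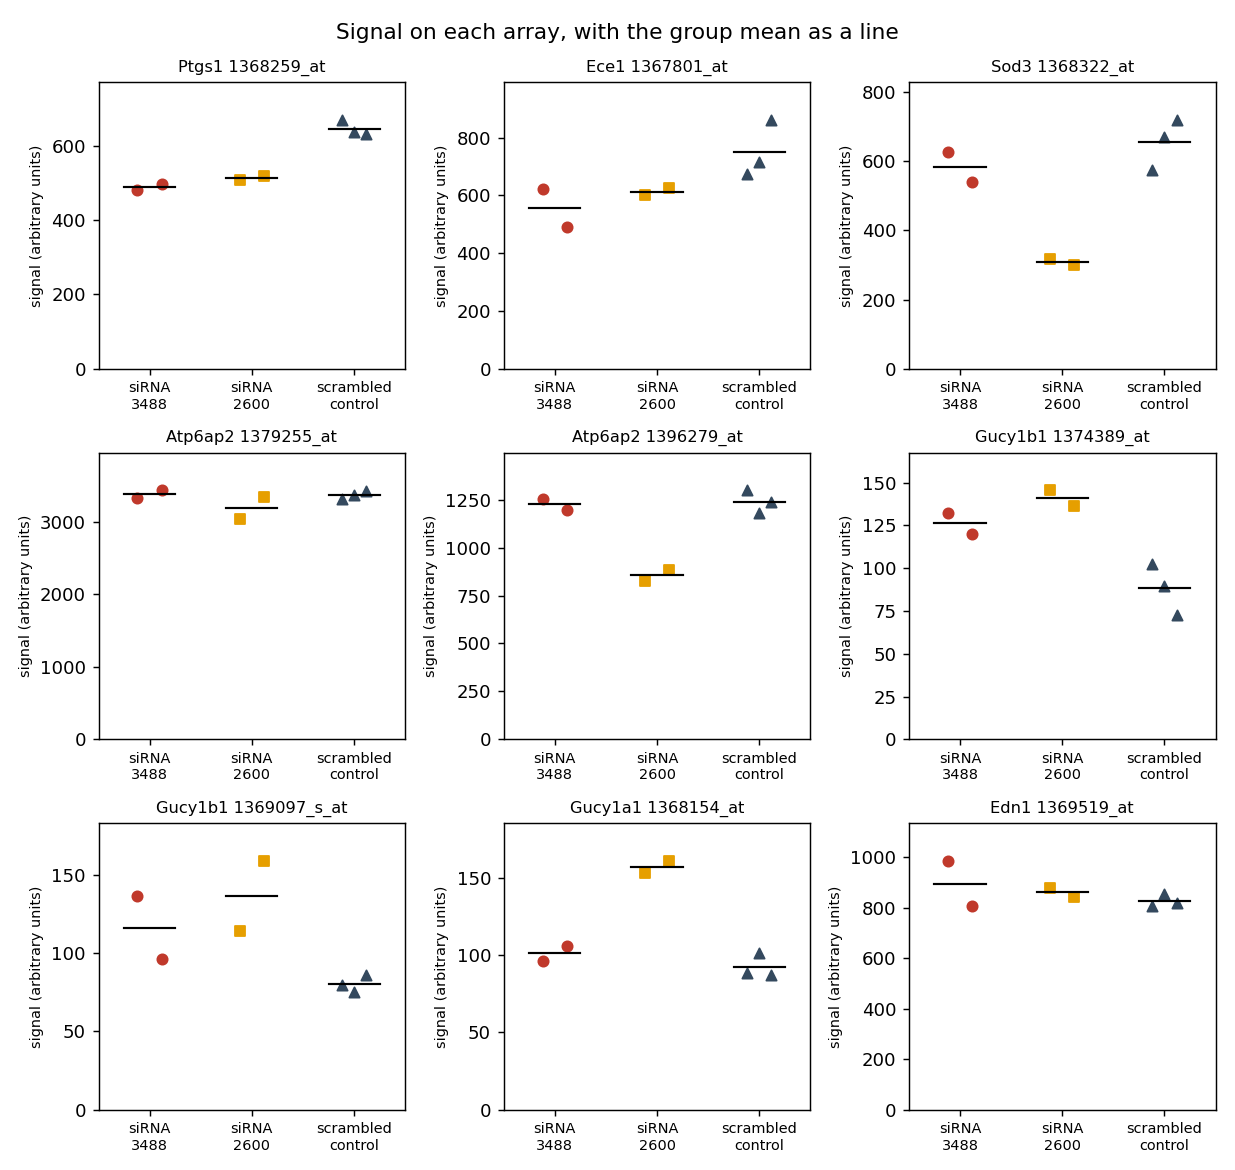
The plot shows, on linear axes from 0, the signal of 9 probe sets of 7 genes on each array (points) and the mean of each group (lines), for siRNA 3488, siRNA 2600 and scrambled control cultures. The Sod3 points lie at 316 and 301 in the siRNA 2600 cultures, below all other arrays of that gene.

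Gucy1a1 and Gucy1b1 encode the 2 subunits of soluble guanylyl cyclase, the receptor of nitric oxide. Gucy1b1 probe set 1374389_at read 132 and 120 in siRNA 3488 cultures, 146 and 136 in siRNA 2600 cultures and 102, 89.5 and 72.7 in control cultures, so all siRNA arrays were above the control arrays. Its other probe set, 1369097_s_at, also had no overlap, at 136, 95.9, 114 and 159 in siRNA cultures and 79.5, 75.2 and 86.1 in control cultures. The log2 changes with both siRNAs were 0.61 ± 0.19 and 0.63 ± 0.22 (SE), and neither passed the test (limma adjusted p = 0.162 and 0.189).

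Gucy1a1 probe set 1368154_at read 96.3 and 106 in siRNA 3488 cultures, 153 and 161 in siRNA 2600 cultures and 88.4, 101 and 87.3 in control cultures. Only the siRNA 2600 arrays were clear of the control range, with a log2 change of 0.77 ± 0.21 (SE; 95% interval 0.30 to 1.24; limma adjusted p = 0.125). Its other probe set, 1387079_at, read 62.5 and 66.1 in siRNA 3488 cultures, 126 and 97.9 in siRNA 2600 cultures and 67.2, 99.5 and 112 in control cultures. There the siRNA 3488 arrays lay below all controls, with a log2 change of -0.50 (limma adjusted p = 0.274), while siRNA 2600 overlapped them (0.29), so with siRNA 3488 the probe sets of this gene differed in sign. The nitric oxide synthase genes Nos1, Nos2 and Nos3 were too dim to be tested. Nos1 lay between 40.7 and 66.5 and Nos3 between 4.59 and 36.4. Nos2 reached 256 on scrambled control replicate 3 and 142 on siRNA 2600 replicate 2, and it lay between 20.7 and 48.9 on the other 5 arrays.

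The genes of the 2 cyclase subunits are neighbours on chromosome 2 with no protein-coding gene between them. Their promoters, and those of Ptgs1 and Ece1, which were called with siRNA 3488, are shown as the 250 bases before a start of the gene in RefSeq (assembly GRCr8), read 5′ to 3′ on the strand of the gene. For Gucy1a1 and Gucy1b1 the annotated gene reaches further upstream than this start, so their windows lie at least partly within the annotated gene. The motifs searched on both strands were TATAAA (the TATA box), CCAAT (the CCAAT box) and GGGCGG (the GC box), and capitals mark the matches.
Gucy1a1 (chr2:169779624-169779873, minus strand): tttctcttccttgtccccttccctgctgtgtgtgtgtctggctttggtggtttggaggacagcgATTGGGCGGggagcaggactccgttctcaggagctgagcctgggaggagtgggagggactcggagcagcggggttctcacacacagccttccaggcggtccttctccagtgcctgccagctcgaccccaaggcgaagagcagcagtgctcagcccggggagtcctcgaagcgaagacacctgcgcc
Gucy1b1 (chr2:169696988-169697237, minus strand): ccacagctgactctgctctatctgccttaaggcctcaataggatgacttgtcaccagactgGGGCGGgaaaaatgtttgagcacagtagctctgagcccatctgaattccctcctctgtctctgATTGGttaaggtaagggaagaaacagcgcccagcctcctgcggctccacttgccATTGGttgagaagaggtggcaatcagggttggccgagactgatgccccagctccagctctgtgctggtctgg
Ptgs1 (chr3:39981169-39981418, plus strand): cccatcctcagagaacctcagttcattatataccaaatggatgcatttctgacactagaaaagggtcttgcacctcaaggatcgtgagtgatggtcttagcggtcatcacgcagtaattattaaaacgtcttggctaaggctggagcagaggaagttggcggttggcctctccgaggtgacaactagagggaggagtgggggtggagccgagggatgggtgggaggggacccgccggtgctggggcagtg
Ece1 (chr5:155360781-155361030, plus strand): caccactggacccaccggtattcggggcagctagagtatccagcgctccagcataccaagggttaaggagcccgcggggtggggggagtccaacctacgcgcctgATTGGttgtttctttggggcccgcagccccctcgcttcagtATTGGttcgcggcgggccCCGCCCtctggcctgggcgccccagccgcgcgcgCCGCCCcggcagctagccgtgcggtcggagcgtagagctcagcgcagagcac
None of the 4 windows held TATAAA, which 12.9% of 33469 rat promoters of this length hold. CCAAT occurred 1 time in the Gucy1a1 window, 2 times in that of Gucy1b1 and 2 times in that of Ece1, and 34.0% of all promoters hold it. GGGCGG occurred 1 time in the window of each cyclase subunit gene, where in Gucy1a1 it overlaps the CCAAT match. It occurred 2 times in the Ece1 window, and 30.5% of all promoters hold it. The Ptgs1 window held none of these motifs. Of the 33 vasoactive genes with a promoter in the table, 6 held TATAAA, 9 held CCAAT and 13 held GGGCGG.

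Nppb, the gene of B-type natriuretic peptide, read 109 and 38.9 in siRNA 3488 cultures, 115 and 90.6 in siRNA 2600 cultures and 67.3, 41.8 and 59.2 in control cultures. The siRNA 2600 arrays were above the controls and the siRNA 3488 arrays were not, and with siRNA 2600 the log2 change of 0.89 ± 0.44 (SE; 95% interval -0.08 to 1.86) did not pass the test (limma adjusted p = 0.374). Nppb lay at the edge of the filter, with a mean log2 signal of 6.10 where the lowest tested was 6.09. All control arrays were under 68.2, the signal at that level. Nppb thus entered the tests only through its higher siRNA arrays, and the filter favours the rise described. Npr2, the receptor of C-type natriuretic peptide, gave log2 changes of 0.04 with siRNA 3488 and -0.47 with siRNA 2600, and the groups overlapped. Nppa, Npr1 and Npr3 were not tested, and their highest signals were 54.6, 14.2 and 51.6.

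Among the prostanoid genes, Ptgs1 encodes the constitutive cyclooxygenase that starts prostanoid synthesis. Its probe set 1368259_at read 480 and 498 in siRNA 3488 cultures, 508 and 518 in siRNA 2600 cultures and 670, 636 and 633 in control cultures. All 4 siRNA arrays were below all 3 control arrays, with means of 489 ± 12.9 for siRNA 3488 (SD, n = 2), 513 ± 7.15 for siRNA 2600 (n = 2) and 647 ± 20.8 for the control (n = 3). The log2 change was -0.40 ± 0.09 with siRNA 3488 (SE; 95% interval -0.60 to -0.21; limma adjusted p = 0.0152), whereas siRNA 2600 gave -0.33 ± 0.09 (95% interval -0.53 to -0.14; limma adjusted p = 0.116).

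In the fit of both siRNAs as 1 group, Ptgs1 changed by -0.37 ± 0.08 on the log2 scale (SE), which did not pass (limma adjusted p = 0.0885). The direct difference between the siRNAs was -0.07 (95% interval -0.28 to 0.15; limma adjusted p = 0.713), so a difference between their effects was not detectable. The siRNA 3488 call was lost after quantile normalization (adjusted p = 0.0522), median centring (0.0781) and cyclic loess (0.0634). It was also lost without either siRNA 3488 array (0.0570 and 0.0744) and without control replicate 1 or 2 (0.0671 and 0.0515). The other Ptgs1 probe set was not tested, and its signals ran from 9.09 to 104.

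Ptgis encodes prostacyclin synthase. It read 1897 and 2043 in siRNA 3488 cultures, 2122 and 1787 in siRNA 2600 cultures and 1841, 1894 and 1789 in control cultures. Only the siRNA 3488 arrays did not overlap the controls, and the nearest arrays, at 1897 and 1894, were almost equal. The log2 changes of 0.10 with siRNA 3488 and 0.08 with siRNA 2600 did not pass the test. Ptges, which encodes a prostaglandin E synthase, gave -0.17 with siRNA 3488 and -0.09 with siRNA 2600. The prostaglandin E receptor genes Ptger2 and Ptger4 were not tested, with highest signals of 17.9 and 47.6. In a fit without the filter on low signals, 0 of the 30 dim probe sets were called in any comparison. Of all 31042 probe sets, that fit called 6.82% with siRNA 3488, 0.293% with siRNA 2600, 1.48% between the siRNAs and 0 with both. The lowest limma adjusted p of the dim probe sets was 0.145, for Ptger4 with siRNA 3488.

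Ramp1, which encodes a partner protein of the calcitonin receptor-like receptor, read 57.5 and 65.1 in siRNA 3488 cultures, 75.5 and 64.1 in siRNA 2600 cultures and 76.9, 112 and 81.3 in control cultures. All 4 siRNA arrays were below the control arrays, though narrowly (75.5 beside 76.9), with a log2 change of -0.45 for both siRNAs that did not pass the test (limma adjusted p = 0.347). The siRNA signals of 57.5, 65.1 and 64.1 were under 68.2, the signal at the filter level, and all control arrays were above it. Ramp1 thus entered the tests mainly through the control arrays, and the filter favours the fall described. Calcrl, the gene of that receptor, stayed under 50. The kinin receptor genes Bdkrb1 and Bdkrb2 had signals of at most 45.5. The receptor genes Adra1b, Adrb1, Avpr2 and Drd1, for adrenaline, vasopressin and dopamine, reached at most 77.7. Among the 30 untested probe sets the median width of the 95% interval of a log2 change was 3.42, against 0.722 for the tested ones, so large changes of these genes could have been missed.

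The 2 siRNAs were also compared with each other. With siRNA 3488, Sod3 (625 and 539, against 316 and 301 with siRNA 2600) was higher by 0.91 ± 0.13 on the log2 scale (SE; 95% interval 0.62 to 1.21; limma adjusted p = 0.0103). Atp6ap2 probe set 1396279_at (1254 and 1198, against 826 and 885 with siRNA 2600) was higher by 0.52 ± 0.08 (95% interval 0.33 to 0.71; limma adjusted p = 0.0134). In both cases siRNA 2600 was the group apart from the other 2. These 2 of 20 probe sets were called beside 6.01% of all tested, 7 of 20 did not overlap beside 49.6% of all, and the median log2 difference was -0.074 beside -0.025 over all. Gucy1a1 was lower with siRNA 3488 on both of its probe sets without overlap, with log2 differences of -0.63 and -0.79, and neither passed the test (limma adjusted p = 0.133 and 0.172).

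**Figure D4:**
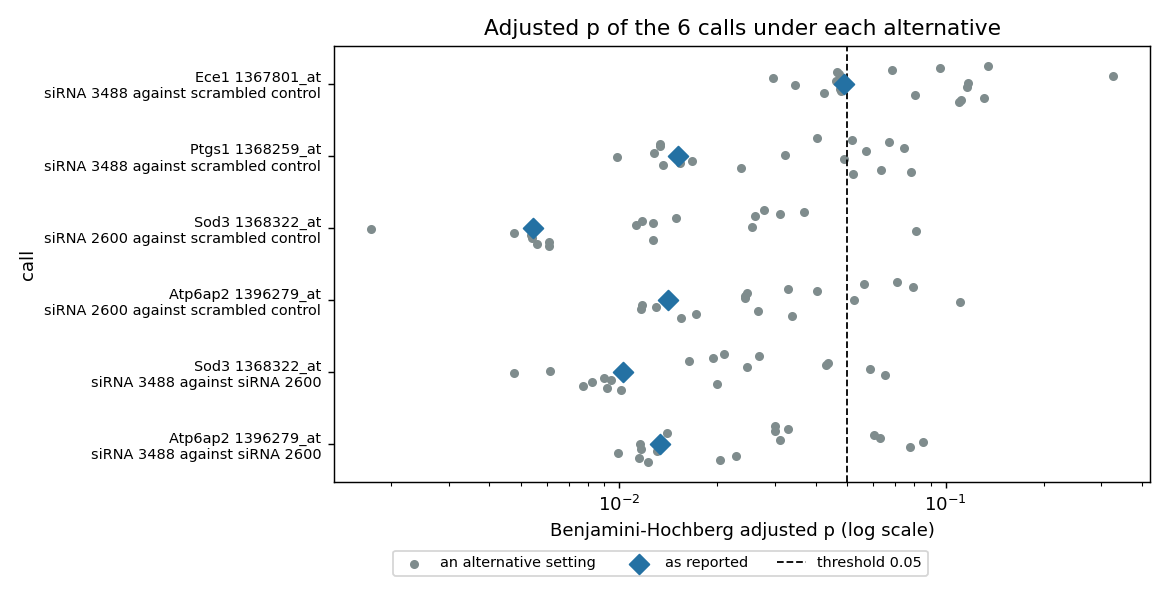
The plot shows the adjusted p of the 6 calls as reported (diamonds) and under each alternative setting (points), on a log axis with the threshold of 0.05 dashed. Sod3 with siRNA 2600 stays left of the line in 17 of 18 settings and Ece1 with siRNA 3488 in 8 of 18.

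The wider pathways were described with 121 other vasoactive genes, of which 109 had a probe set and 48 were tested on their brightest one. With siRNA 3488, 3 rose and 3 fell (12.5% of the 48, median log2 change 0.015), where 19.9% of all genes were called on their brightest probe set. This share, and those of all genes given below, came from a separate fit of 10019 genes with its own adjustment. The 48 were called in the fit of all 18625 probe sets, which called 15.6% with siRNA 3488. Sod1, the cytosolic superoxide dismutase gene, read 9852 and 11145 in siRNA 3488 cultures, against 6344, 7138 and 7125 in control cultures. All siRNA 3488 arrays were above the controls, and the log2 change was 0.61 ± 0.09 (SE; limma adjusted p = 0.00425). The call held in 18 of 18 alternative settings, but the change came down to 0.32 after quantile normalization. Cav1, whose product caveolin 1 binds and restrains nitric oxide synthase, gave 0.37 (limma adjusted p = 0.0117), and Ptges3, a chaperone gene also described as a prostaglandin E synthase, gave 0.27 (limma adjusted p = 0.0166). After quantile normalization both turned below 0, to -0.049 and -0.0084, and neither passed, so their direction depends on the scaling. Over the 18 settings the Cav1 call was lost in 5 and the Ptges3 call in 6. Cav1 has 3 probe sets, and its values here are those of the brightest only.

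The 3 that fell with siRNA 3488 were Nosip, which encodes a protein that binds nitric oxide synthase (-0.39), Arg1, which encodes the arginase that competes for the synthase's substrate (-0.30), and Arrb1, a receptor-desensitising arrestin gene (-0.27). These calls were lost in 10 (Nosip), 6 (Arg1) and 11 (Arrb1) of 18 alternative settings, and a block on the replicate number ended those of Nosip (adjusted p = 0.0508) and Arrb1 (0.118). Arrb1 has 2 probe sets, and its values here are those of the brighter only. With siRNA 2600 only Pde3b, which encodes a cyclic nucleotide phosphodiesterase, was called (2.08% of the 48, beside 1.83% of all genes; median 0.082). It read 512 and 531 in siRNA 2600 cultures, against 767, 798 and 800 in control cultures, and its log2 change was -0.60 (limma adjusted p = 0.0122). This call was lost without any 1 of the 3 control arrays (adjusted p 0.0593 to 0.0686), with a block on the replicate number (0.0511) and without the intensity trend (0.0869). With both siRNAs limma called 0 of the 48, beside 0.309% of all genes, 6 had an unadjusted p under 0.05, and the median was 0.018. Between the siRNAs, Pde3b, Ddah1 (an enzyme that degrades an inhibitor of nitric oxide synthase) and Sod1 were higher with siRNA 3488 and Arg1 was lower (8.33% of the 48, beside 9.43% of all genes). Of 18 alternative settings, the calls of Pde3b, Ddah1 and Sod1 were each lost in 10 and that of Arg1 in 8.

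**Figure D5:**
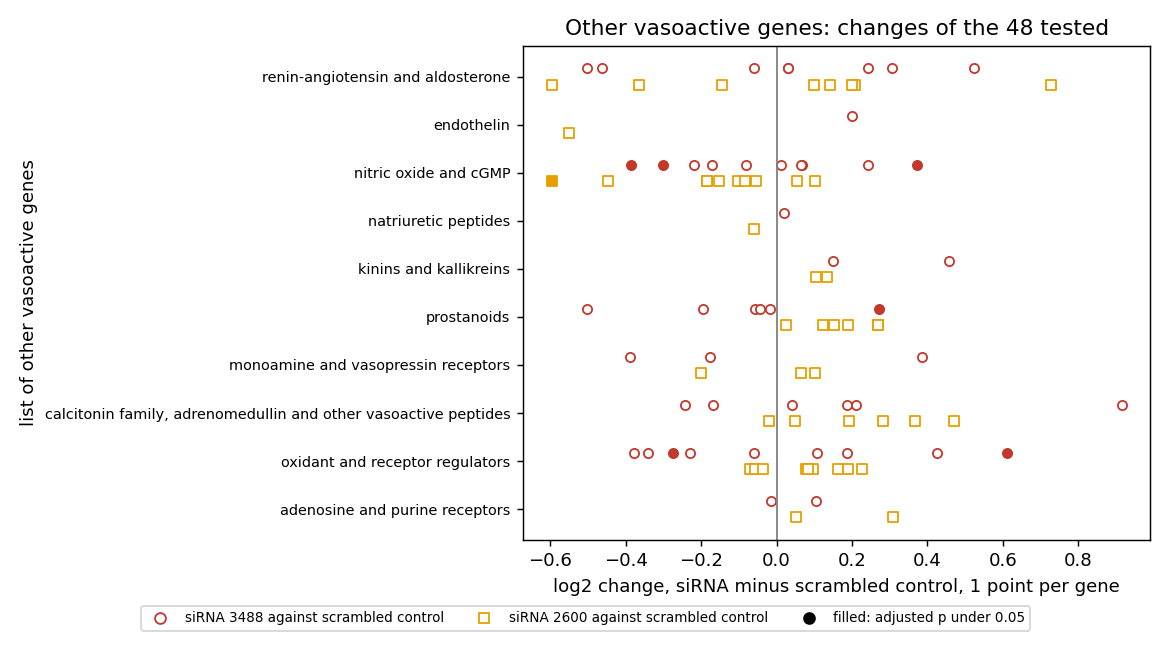
The plot shows the log2 change of the 48 tested other vasoactive genes with siRNA 3488 and with siRNA 2600 against the scrambled control, by pathway list, with 1 point per gene and filled points at an adjusted p under 0.05. Of the filled points, 6 are with siRNA 3488 (the highest Sod1, at 0.61) and 1 is with siRNA 2600, Pde3b at -0.60.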

How the data were processed

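Each deposited value is the intensity of a probe set on an array, a linear signal that came from the authors' run of GCOS, version 1.4 per the submitters' processing notes. Its settings for background and scaling were not given in the sources used here. Groups were taken from the sample titles. Genes were named from the platform annotation, in which 20826 probe sets have 1 symbol, 436 several and 9780 none; none was named from the last 2 kinds. Signals under 1 were set to 1 before log2, and the deposited array scaling was kept. Leaving out 57 control probe sets, the upper 60% by mean log2 signal (18625) were tested by limma 3.58.1 under R 4.3.3, using lmFit and eBayes (with an intensity trend), and Benjamini-Hochberg adjustment. Single-siRNA comparisons came from a fit of 3 groups over 7 arrays, and both siRNAs against the control from a fit of 2 groups. The fits were tested on simulated data.

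The genes, lists and tests were chosen with earlier results of these data known. Described in full are the 12 genes that were called, stood at percentile 75 or more, or had groups without overlap and a log2 change of 0.5 or more. Of the other lists, called genes are named. The values of Agtrap, Agtr2, Npr2, Ptges, Nos2 and Ptger4 were chosen for mention after they were seen. Alternatives were quantile normalization, median centring, cyclic loess, other filters, an offset of 32, signals under the filter level raised to it, no intensity trend, a block on the replicate number, 1 probe set per gene, fits to other sets of arrays, and leaving out each array in turn.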

Additional observations from a re-analysis of the deposited data

Results flagged for a closer look

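The effects of the siRNAs against the scrambled control differed from each other for 2 probe sets of the vasoactive genes, by the test of the difference itself. For Sod3 the effect of siRNA 3488 (-0.17) minus that of siRNA 2600 (-1.08) was 0.91 on the log2 scale (limma adjusted p = 0.0103). For Atp6ap2 probe set 1396279_at the effects were -0.02 with siRNA 3488 and -0.54 with siRNA 2600, and the difference was 0.52 (limma adjusted p = 0.0134). The second Atp6ap2 probe set gave a difference of 0.09 (limma adjusted p = 0.501). The Sod3 call was lost without an intensity trend (limma adjusted p = 0.0652) and with the arrays of the compared groups only (0.0587). The Atp6ap2 call was lost in 4 of 17 settings, among them these same 2 (limma adjusted p = 0.0777 and 0.0850). No cause of the differences between the siRNAs was tested.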

How the results depend on the processing

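Of 1040 alternative values of the single probe sets of the genes described in full, 1007 kept their direction where called and their side of the threshold. Most of the 1007 belong to results that were not called as reported. Of the others, 29 lost a call and 4 gained one. With siRNA 3488 the Ece1 call was lost in 10 of 18 settings and the Ptgs1 call in 7 of 18. With siRNA 2600 the Sod3 call was lost in 1 of 18 and the Atp6ap2 call in 5 of 17. Between the siRNAs the Sod3 call was lost in 2 of 18 and the Atp6ap2 call in 4 of 17. Among the called ones 0 turned their sign, while 30 values changed sign without being called. The number of vasoactive genes called with siRNA 3488 was 2 as reported, 0 after quantile normalization, median centring or cyclic loess, 1 without a filter, without an intensity trend or with the replicate block, and 0 to 2 when 1 array was left out. With siRNA 2600 it was 2, 0 without an intensity trend, 1 with 1 probe set per gene or with the replicate block, and 1 to 2 when 1 array was left out. Between the siRNAs it was 2, 0 without an intensity trend or with the arrays of the compared groups only, 1 with 1 probe set per gene, and 1 to 2 when 1 array was left out. With both siRNAs it was 0, 3 as the mean effect in the fit of 3 groups (Ptgs1, Sod3 and Atp6ap2) and 0 with the replicate block. It was 0 to 1 when 1 array was left out, with Ptgs1 called without siRNA 2600 replicate 1. The number called among all 18625 probe sets moved as well. With both siRNAs it was 27 as reported, 1378 as the mean effect and 1304 without siRNA 2600 replicate 1. With siRNA 3488 it was 2911 as reported, 1839 after quantile normalization, 980 without control replicate 1 and 591 without an intensity trend. With siRNA 2600 it was 192 as reported and 0 without an intensity trend. Between the siRNAs it was 1119 as reported, only 5 without an intensity trend and only 29 with the arrays of the compared groups only. The gene counts therefore do not describe the vasoactive genes alone. Where 1 array was left in a group, it was assumed to vary like the other groups. Cav1 and Ptges3 with siRNA 3488 turned to -0.049 and -0.0084 after quantile normalization. The cause of these changes was not tested.

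Deviations of same-numbered arrays from their group mean correlated at 0.143 between the siRNAs. The correlations were 0.0663 and 0.0190 between siRNA 3488 and the control, and 0.163 and -0.0483 between siRNA 2600 and the control. Differently numbered arrays reached 0.191, for siRNA 2600 replicate 2 with control replicate 3. The deviations of 2 arrays in a group mirror each other, so these values cannot settle whether the replicate numbers pair the cultures. With the number as a block, 2721 of all probe sets were called with siRNA 3488 (2911 without it), 67 with siRNA 2600 (192), 1561 between the siRNAs (1119) and 0 with both (27). Groups of 2 and 3 arrays and dim signals limit what could be detected.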

Other observations

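Probe sets that the annotation gives to several genes were left out of the comparisons. The probe set shared by Kng1, Kng2l1 and Kng2, kininogen genes, read 2.68 and 2.91 in siRNA 3488 cultures, 4.16 and 5.07 in siRNA 2600 cultures and 6.44, 16.2 and 15.5 in control cultures. The probe set shared by Nos2 and a Nos2 pseudogene read 33.1 and 2.34 in siRNA 3488 cultures, 16.8 and 14.4 in siRNA 2600 cultures and 2.56, 1.73 and 1.53 in control cultures. Both are too dim to have entered the tests.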
